A study of Mus musculus with 11 samples.

Results

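The genes described here are the SR splicing factors *Srsf1*, *Srsf2*, *Srsf3*, *Srsf4*, *Srsf5*, *Srsf6*, *Srsf7*, *Srsf9*, *Srsf10* and *Srsf11*, 10 genes of the 54418 in the count table. They were chosen by name, as listed members of one protein family, and each symbol was matched to its Ensembl identifier through GENCODE M21 on GRCm38. All 10 were counted in every library, with 900 to 61911 counts per gene and mouse, and all 10 passed the filter on low counts in each of the 3 comparisons. RNA was sequenced from the cells of whole thymus, mashed through a filter, of mice aged 8 to 12 weeks. There were 4 wt mice, 4 mice lacking *Zmat3* alone (*Zmat3-/-*), and 3 triple knockout mice (*Puma-/-p21-/-Zmat3-/-*, here TKO). Both knockout groups lack *Zmat3*, which encodes an RNA-binding zinc finger protein and is a target of TRP53. TKO mice came from crossing *Zmat3-/-* with *Puma-/-p21-/-* animals and also lack PUMA, a BH3-only inducer of apoptosis encoded by *Bbc3*, and p21, a cyclin-dependent kinase inhibitor encoded by *Cdkn1a*. The deletions are present in every cell of the body, and the mice carry no other treatment. In bulk RNA, fewer cells of a type and less RNA per cell cannot be told apart.

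SR proteins bind exonic enhancer sequences in pre-mRNA through RNA recognition motifs and, through a tail rich in arginine and serine, recruit the U1 and U2AF factors that mark the splice sites. SRPK kinases phosphorylate this tail in the cytoplasm, CLK kinases phosphorylate it in the nucleus, and the import receptor transportin-SR carries the protein between these compartments. Most SR genes limit their own output by splicing in an exon, or keeping an intron, that sends the transcript to nonsense-mediated decay (NMD). Developing T cells splice receptor genes such as *Ptprc*, which encodes CD45, differently at successive stages. The comparisons asked how expression differs between *Zmat3-/-* and TKO thymocytes, and between each of these and wt.

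In the annotation, 9 of the 10 *Srsf* genes had a transcript of the NMD class, all except *Srsf10*, against 29.5% of the 11992 protein-coding genes tested. A retained-intron transcript was annotated for 8 of the 10, against 60% of those genes, and both classes for 8, against 23.4%. The deposited counts sum over all transcripts of a gene, so they do not separate a coding transcript from one bound for decay. For each gene, 300 bases around a RefSeq start (GRCm38.p6) were taken, 250 before it and 50 after it, and all 10 genes matched. Of several RefSeq starts, the one nearest to the GENCODE start was used. The *Srsf10* window (chr4:135855821-135856120, plus strand) lies wholly after the GENCODE start of that gene, at 135855747. The letters GGGCGG, read on either strand, stood in 9 of the 10 windows, all except that of *Srsf3*, and in 35.7% of 32851 windows of the same length. CCAAT stood in those of *Srsf1*, *Srsf2*, *Srsf3* and *Srsf10*, 4 of 10, against 37.4% of all windows. CCGGAAG stood in 4 of 10 (*Srsf4*, *Srsf5*, *Srsf7* and *Srsf11*) against 8.86%, TATAAA in 2 of 10 (*Srsf2* and *Srsf3*) against 13.6%, and TGACGTCA in 0 of 10 against 1.79%. Both strands were searched for each, and these are matches of letters only. Shown here are the windows of *Srsf5* (chr12:80945249-80945548, plus strand) and *Srsf6* (chr2:162931258-162931557, plus strand), whose wt and *Zmat3-/-* ranges were apart, and of *Srsf3* (chr17:29032410-29032709, plus strand), the neighbour of *Cdkn1a*, with matches to GGGCGG or CCAAT on either strand in capitals.
Srsf5: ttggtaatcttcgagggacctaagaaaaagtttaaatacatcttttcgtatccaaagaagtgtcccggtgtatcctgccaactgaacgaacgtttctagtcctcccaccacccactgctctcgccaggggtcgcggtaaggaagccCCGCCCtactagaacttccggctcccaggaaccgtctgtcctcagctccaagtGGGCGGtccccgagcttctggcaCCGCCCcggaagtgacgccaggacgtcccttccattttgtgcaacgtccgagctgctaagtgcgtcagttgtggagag
Srsf6: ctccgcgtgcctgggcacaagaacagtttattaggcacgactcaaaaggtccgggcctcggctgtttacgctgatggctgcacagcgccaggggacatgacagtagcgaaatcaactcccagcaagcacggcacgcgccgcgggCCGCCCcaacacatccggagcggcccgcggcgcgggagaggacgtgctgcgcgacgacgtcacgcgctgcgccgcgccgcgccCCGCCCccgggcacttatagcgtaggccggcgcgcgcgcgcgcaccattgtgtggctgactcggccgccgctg
Srsf3: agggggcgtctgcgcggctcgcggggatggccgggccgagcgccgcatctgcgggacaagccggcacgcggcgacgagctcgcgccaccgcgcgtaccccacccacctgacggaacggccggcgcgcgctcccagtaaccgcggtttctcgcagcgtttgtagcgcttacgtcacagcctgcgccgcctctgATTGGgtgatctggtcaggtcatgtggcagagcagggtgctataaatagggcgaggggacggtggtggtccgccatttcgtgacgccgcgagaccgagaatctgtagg
The *Srsf5* window holds 3 matches to GGGCGG, the *Srsf6* window 2, and the *Srsf3* window 1 match to CCAAT.

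The libraries held 17669715 to 80207003 counts. At 3 counts, the resolution is 0.0403 CPM (read counts scaled to library size with TMM factors) in the deepest library and 0.167 CPM in the shallowest. The 12 thymocyte marker genes were above 1 CPM in every mouse and summed to 12320 to 17090 CPM, though single markers split with the wt pairs described next. *Rag1*, of the recombinase, was at 1603, 2243, 5270 and 4939 CPM in wt mice 1 to 4 and *Lck*, the T cell kinase, at 2038, 1930, 1332 and 1297 CPM. *Zmat3* was at 9.88, 12.2, 26.8 and 26.8 CPM in wt mice 1 to 4. It reached at most 6.85 CPM among *Zmat3-/-* and 8.25 CPM among TKO mice, so its transcript was lower but still counted in the knockouts. *Bbc3* was at 16.8 to 20.1 CPM in wt, 15.3 to 19.8 CPM without *Zmat3* and 12.9 to 15.2 CPM in the TKO group, and *Cdkn1a* at 3.53 to 10.4, 4.77 to 8.54 and 2.49 to 3.52 CPM, so both were also still counted in TKO mice. The wt libraries stood in 2 pairs. Across genes, the correlation of log2 CPM was 0.982 between wt mice 1 and 2 and 0.978 between wt mice 3 and 4, and 0.909 to 0.932 across the pairs. Within the *Zmat3-/-* group it was 0.983 to 0.988, and among TKO mice 0.973 to 0.982. The pairs also differed in *Xist*, which 5 mice had at 505 CPM or more (numbers 1 and 2 of wt, numbers 1 and 2 of *Zmat3-/-*, and number 1 of TKO) and the remaining 6 at 2.54 CPM or less. The median absolute log2 difference between mice 1 and 2 and mice 3 and 4 over all 13494 genes tested was 0.55 in wt and 0.13 in *Zmat3-/-* mice. In wt mice it followed transcript length. The median log2 difference was 0.78 in the fifth of genes with the shortest transcripts (130 to 1804 bases) and −0.63 in the fifth with the longest (5077 to 123179 bases). In these length classes the median log2FC between *Zmat3-/-* and wt mice was −0.25 and 0.20. The part of transcript length in the differences below was not tested.

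Per kilobase of merged exons, *Srsf5* was the highest of the 10 genes. Its level was 216 ± 10.1 CPM per kb (SD, n = 4) in wt, 177 ± 11.2 (SD, n = 4) in *Zmat3-/-* and 192 ± 16.0 (SD, n = 3) in TKO mice. *Srsf2* came next, with a mean of 135 CPM per kb over the 11 mice, and stood below *Srsf5* and above *Srsf6* in 11 of 11 mice. *Srsf6* had a mean of 105 and *Srsf1* of 95.8 CPM per kb, and *Srsf6* was the higher in 9 of 11 mice. *Srsf1* and *Srsf7* (86.9 CPM per kb) did not separate, with *Srsf1* above in 6 of 11 mice. *Srsf7* was above *Srsf3* (77.8 CPM per kb) in 10 of 11 mice, and *Srsf3* was above *Srsf4* in 11 of 11. The lowest genes were *Srsf4* (39.3 CPM per kb), *Srsf11* (36.7), *Srsf9* (32.3) and *Srsf10* (30.3), and each was above the next in 6 to 8 of the 11 mice, so their order was not settled beyond the spread. The order depends on the length used. Per kilobase of the longest transcript, *Srsf5* (223 CPM per kb) was above *Srsf2* (211) in 9 of 11 mice, *Srsf3* moved to the third place, with 153 CPM per kb, *Srsf11* moved to 99.8 and was above *Srsf10* in 11 of 11 mice, and *Srsf10*, at 56.4, stood above *Srsf4* and *Srsf9*.

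In CPM summed over the 10 genes, wt mice 1 to 4 had 4271, 4014, 4090 and 4028. The *Zmat3-/-* mice had 3580, 3833, 3592 and 3602, and the TKO mice 3722, 3683 and 4147. The lowest wt sum was above the highest *Zmat3-/-* sum, and TKO mouse 3, the deepest library, lay within the wt range. The mean sum was 4101 ± 118 CPM (SD, n = 4) in wt, 3652 ± 121 (SD, n = 4) in *Zmat3-/-* and 3851 ± 258 (SD, n = 3) in TKO mice. No test was made of this sum, because the genes were listed with earlier results of these data known.

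**Figure D1:**
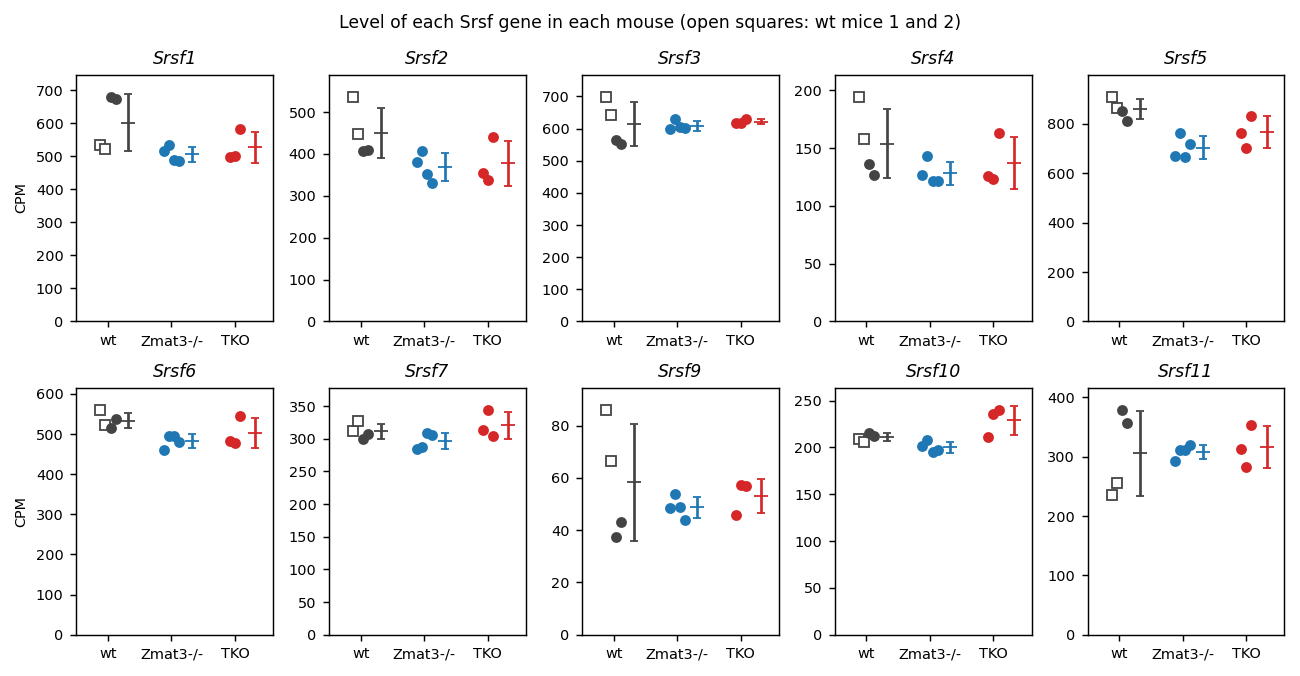
Level of each *Srsf* gene (y axis, CPM, from 0) in each mouse by genotype (x axis). Points are mice, open squares are wt mice 1 and 2, and the bar beside each group is the mean ± SD (n = 4, 4 and 3). For *Srsf5* the wt mice lie at 811 to 909 CPM, above the *Zmat3-/-* mice at 667 to 761 CPM, while for *Srsf9* and *Srsf11* the open and filled wt points stand apart.

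Between *Zmat3-/-* and wt thymocytes, 9 of the 10 *Srsf* genes had a lower fitted level in *Zmat3-/-* mice, and 0 passed an adjusted p of 0.05 in edgeR's quasi-likelihood test, where 0.763% of the 13494 genes tested passed. The median log2FC of the 10 was −0.19, against −0.03 over all genes tested, of which 53.2% were negative. It was −0.11 without wt mouse 1 and also with 1 surrogate variable. Without adjustment, 1 of the 10, *Srsf5*, had p under 0.05, against 16.1% of all genes. The ranges of the 2 genotypes did not overlap for *Srsf5* and *Srsf6*, both lower in *Zmat3-/-* mice, as was so for 6.75% of all genes, and no *Srsf* gene had the *Zmat3-/-* range above, as 7.31% of all genes did. With the replicate number as a block 0 of 10 passed by edgeR, and 12 genes in all in place of 103. With DESeq2, *Srsf5* passed, against 8.04% of all genes.

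*Srsf5* encodes an SR protein with a pair of RNA recognition motifs, closely related to SRSF4 and SRSF6. Its level was 909, 866, 854 and 811 CPM in wt mice 1 to 4 and 670, 761, 667 and 719 CPM in *Zmat3-/-* mice 1 to 4. Each wt mouse was above each *Zmat3-/-* mouse. The log2FC was −0.28 (standard error 0.104, 95% interval −0.52 to −0.04), a fold of 0.822, with an adjusted p of 0.239 by edgeR and a log2FC of −0.28 with an adjusted p of 0.00194 by DESeq2. The exact permutation test of log2 CPM (two-sided) gave p = 0.0286, the smallest that 4 mice against 4 allow without pairing. Taken as 4 pairs of the same number, *Srsf5* was lower in 4 of 4, and the exact sign permutation gave p = 0.125, the smallest that 4 pairs allow. *Srsf2*, *Srsf4* and *Srsf6* were also lower in 4 of 4 pairs, with the same p by that test. Over 18 alternative settings the log2FC of *Srsf5* stayed between −0.32 and −0.26. *Srsf5* lies on chromosome 12 from 80945504 to 80950507 (ENSMUSG00000021134.17), and 13.1% of its 31-base words are shared with the processed pseudogene *Gm12966*, which had at most 0.29 CPM in any mouse.

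*Srsf6*, whose protein regulates alternative exons in many tissues, had 559, 522, 516 and 537 CPM in wt mice 1 to 4 and 460, 496, 494 and 480 CPM in *Zmat3-/-* mice 1 to 4. The highest *Zmat3-/-* mouse, at 496 CPM, was below the lowest wt mouse, at 516 CPM. The log2FC was −0.14 (standard error 0.0948, interval −0.36 to 0.08, adjusted p = 0.502 by edgeR), and the exact permutation p was 0.0286 without pairing and 0.125 over the 4 pairs. *Srsf4*, the third gene of this subgroup and the one whose protein has a very long arginine and serine tail, had 194, 158, 136 and 126 CPM in wt and 127, 143, 121 and 121 CPM in *Zmat3-/-* mice. The wt mice 1 and 2 were above each *Zmat3-/-* mouse, whereas wt mice 3 and 4 lay within the *Zmat3-/-* range. Its log2FC was −0.26 (standard error 0.138, adjusted p = 0.402 by edgeR), and −0.13 without wt mouse 1. The exons of *Srsf4* share 1532 bases with those of *Gm12992* on the other strand (2.35 to 4.27 CPM), and the library kit does not keep the strand.

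*Srsf1*, which encodes a founding member of the family and is a known proto-oncogene, had 533, 523, 680 and 673 CPM in wt mice 1 to 4. In *Zmat3-/-* mice it had 516, 534, 488 and 485 CPM. Here wt mice 3 and 4 stood above, and wt mice 1 and 2 lay among the *Zmat3-/-* mice, the opposite of *Srsf4*. The log2FC was −0.25 (standard error 0.136, adjusted p = 0.406 by edgeR). *Srsf9*, whose protein is the closest relative of SRSF1 with a shorter tail, had 85.8, 66.5, 37.3 and 43.2 CPM in wt and 48.5, 53.9, 48.7 and 44.0 CPM in *Zmat3-/-* mice. The wt mice lay on both sides of the *Zmat3-/-* mice, with a coefficient of variation of 38.3% in wt and 8.29% in *Zmat3-/-* mice. The log2FC was −0.25 with the widest interval of the 10 genes, −0.79 to 0.30, and was −0.0055 without wt mouse 1.

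*Srsf2*, whose protein stays in the nucleus and is mutated in some myeloid neoplasms, had 536, 448, 408 and 409 CPM in wt and 381, 408, 353 and 331 CPM in *Zmat3-/-* mice. The lowest wt mouse was just below the highest *Zmat3-/-* mouse, so the ranges touched. Its log2FC was −0.28 (standard error 0.124, interval −0.57 to 0.0004, adjusted p = 0.311 by edgeR). Of its exon bases, 460 overlap *Mettl23* and 288 overlap *Mfsd11* on the other strand, so part of its count is uncertain. *Srsf3* and *Srsf7* encode small SR proteins that also hand mRNA to the export receptor NXF1. The level of *Srsf3* was 698, 643, 566 and 552 CPM in wt and 599, 631, 604 and 601 CPM in *Zmat3-/-* mice, and the latter lay inside the wt range. *Srsf7* had 311, 326, 299.6 and 308 CPM in wt and 284, 288, 309 and 305 CPM in *Zmat3-/-* mice, with overlapping ranges. The log2FC was −0.0075 for *Srsf3* (standard error 0.110) and −0.06 for *Srsf7* (standard error 0.0885).

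*Srsf10*, whose protein represses splicing when it loses its phosphates, as in heat shock, had 209, 206, 216 and 212 CPM in wt and 201, 208, 195 and 197 CPM in *Zmat3-/-* mice. A single *Zmat3-/-* mouse, number 2, reached into the wt range. The log2FC was −0.07 (standard error 0.0833), and the interval of −0.26 to 0.12 corresponds to folds of 0.836 to 1.09. *Srsf11*, whose protein binds U2AF, had 235, 255, 378 and 356 CPM in wt and 292, 311, 312 and 320 CPM in *Zmat3-/-* mice. The *Zmat3-/-* mice all lay in the gap between the wt pairs, and the log2FC was 0.01 (standard error 0.176).

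**Figure D2:**
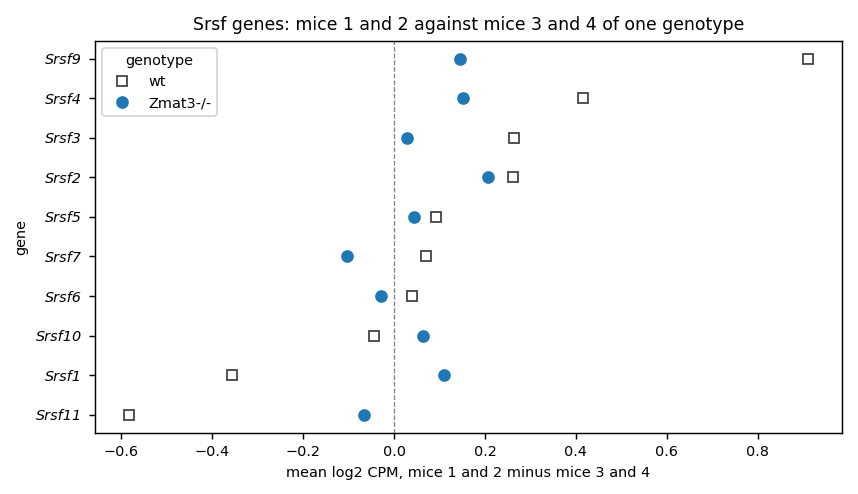
Difference in mean log2 CPM (x axis) between mice 1 and 2 and mice 3 and 4 of one genotype for each *Srsf* gene (y axis), in wt (open squares) and *Zmat3-/-* mice (filled circles). The wt differences run from −0.58 for *Srsf11* to 0.91 for *Srsf9*, and the *Zmat3-/-* differences from −0.10 to 0.21.

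The split of the wt mice was wide for some *Srsf* genes and narrow for others. Mice 1 and 2 minus mice 3 and 4 gave a log2 difference of 0.91 for *Srsf9*, 0.42 for *Srsf4*, 0.26 for *Srsf3* and for *Srsf2*, −0.36 for *Srsf1* and −0.58 for *Srsf11* in wt mice. The genes with the smallest wt differences were *Srsf5* (0.09), *Srsf7* (0.07), *Srsf6* (0.04) and *Srsf10* (−0.04). The longest transcript has 1392 bases for *Srsf9*, 3100 for *Srsf4*, 4010 for *Srsf3*, 1899 for *Srsf2*, 5362 for *Srsf1* and 3106 for *Srsf11*, and 3482, 2403, 3527 and 3754 bases for the last 4 genes in the order given. *Srsf3*, with the second longest of these transcripts, was higher in wt mice 1 and 2. Over all genes of 3738 to 5076 bases, the median wt difference was −0.18 and the median absolute difference 0.38. The counts do not tell which transcript of a gene was present, and the part of length was not tested. Other lists moved with the wt pairs as well. The B cell markers summed to 746 to 872 CPM in wt mice 1 and 2 and 499 to 505 CPM in wt mice 3 and 4, and all 8 were above 1 CPM in every mouse. The myeloid markers (8 of 9 above 1 CPM in every mouse) summed to 390 to 416 and 222 to 228 CPM, the thymic stroma markers (8 of 11) to 245 to 262 and 161 to 173 CPM, and the erythroid markers (5 of 6) to 880 to 1079 and 2171 to 8558 CPM. No marker of these lists was at 0 in every mouse. Of the lists on cell state, heat shock genes summed to 2686 to 2801 and 1530 to 1597 CPM, and nuclear-retained RNAs to 440 to 506 and 1279 to 1464 CPM, in the same order. In *Zmat3-/-* mice the sums were 479 to 525 CPM for B cell, 283 to 385 for myeloid, 193 to 216 for stroma and 1152 to 5705 for erythroid markers, 2377 to 3300 for heat shock genes and 560 to 745 for nuclear-retained RNAs. In TKO mice they were 528 to 545, 210 to 408, 194 to 202, 2676 to 3720, 2619 to 3519 and 698 to 1138 CPM in that order. Of the nuclear-retained RNAs, *Neat1* was at 214.5 to 510.5 CPM in wt, 115.6 to 138.9 CPM in *Zmat3-/-* and 88.61 to 140.8 CPM in TKO mice. *Malat1* was at 209.7 to 922.5, 414.1 to 592.9 and 560.2 to 1033 CPM, so the sum hides members that differ. The 17 immediate-early genes summed to 1411 to 1473 CPM in wt mice 1 and 2, 927 to 950 CPM in wt mice 3 and 4, 1842 to 2295 CPM without *Zmat3*, and 1872 to 2299 CPM in the TKO group. Members of this list went both ways, with *Junb* at 31.1 to 217 CPM in wt and 505 to 619 CPM in *Zmat3-/-* mice, and *Btg2* at 444 to 523 and 351 to 373 CPM. The part of these lists in the *Srsf* differences was not tested.

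With each wt pair as the only controls, a setting added after the values were seen, the *Srsf* genes gave different sets of calls. Against wt mice 1 and 2, *Srsf2*, *Srsf4*, *Srsf5* and *Srsf9* were lower and *Srsf11* was higher in *Zmat3-/-* mice at an adjusted p under 0.05 by edgeR, 5 of 10 genes, where 56.1% of all genes passed. Against wt mice 3 and 4, *Srsf1*, *Srsf5* and *Srsf11* were lower, 3 of 10, where 33% of all genes passed. The log2FC of *Srsf11* was 0.35 in the first fit and −0.27 in the second. That of *Srsf9* was −0.63 and 0.26, and that of *Srsf1* was −0.05 and −0.44. *Srsf5* and *Srsf11* were called in both fits, 2 of 10, where 20.7% of the 13829 genes in both fits were, and *Srsf11* had opposite signs. Both fits use the same *Zmat3-/-* mice. Each leaves out the spread between the wt pairs, so its p-values do not measure that spread. *Srsf5* was lower in both, 1 of 10, as were 3.15% of all genes, with a log2FC of −0.32 (adjusted p = 0.0122 by edgeR) and −0.26 (adjusted p = 0.0203 by edgeR). *Srsf6* was at −0.15 in each of them, with adjusted p-values of 0.124 and 0.0956 by edgeR. A test of whether the *Zmat3-/-* effect differs between mice with high and low *Xist* passed for *Srsf1*, *Srsf9* and *Srsf11*, 3 of 10, against 44.2% of all genes. With 1 surrogate variable, 5 of 10 *Srsf* genes passed (*Srsf1*, *Srsf2*, *Srsf4*, *Srsf5* and *Srsf6*, each lower), where 37.8% of all genes passed.

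**Figure D3:**
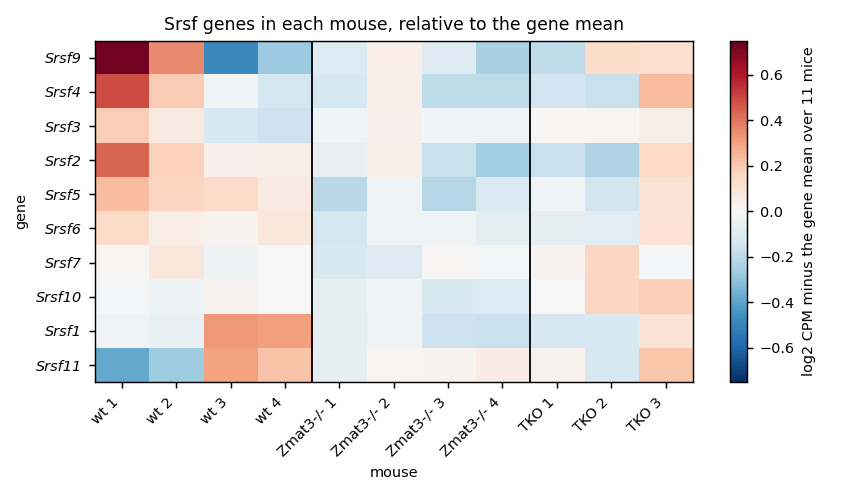
Log2 CPM of each *Srsf* gene (rows) in each mouse (columns, grouped by genotype), minus the gene's mean over the 11 mice, on a colour scale in log2 units from blue (lower) to red (higher). *Srsf9*, *Srsf4*, *Srsf3* and *Srsf2* are above their mean in wt mice 1 and 2, and *Srsf1* and *Srsf11* in wt mice 3 and 4.

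Over the 11 mice, which share the wt pairs and 1 scaling per library, the genes fell along these lines. The correlation of log2 CPM was 0.937 between *Srsf2* and *Srsf4*, 0.912 between *Srsf3* and *Srsf9* and 0.865 between *Srsf5* and *Srsf6*. It was −0.850 between *Srsf9* and *Srsf11* and −0.799 between *Srsf3* and *Srsf11*. The mean of the 10 centred log2 values was 0.18 and 0.07 in wt mice 1 and 2, 0.02 in both wt mice 3 and 4, −0.11 to −0.0004 in *Zmat3-/-* mice, and −0.07, −0.04 and 0.12 in TKO mice 1 to 3. Of 12957 genes, those whose levels followed this mean most closely over the 11 mice were *Txndc9* (r = 0.964), *Suv39h1* (r = 0.963), *Uxs1* (r = 0.954), *Srrt* (r = 0.950) and *Lmf2* (r = 0.947). These are descriptions of 11 libraries, picked as the highest of many genes.

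Between TKO and wt thymocytes, 7 of the 10 *Srsf* genes had a lower fitted level in TKO mice (6 of 10 by mean CPM), as had 54.2% of all genes tested. By edgeR 0 of the 10 passed the adjusted threshold, where 0.294% of 13260 genes passed. Without adjustment 0 of 10 had p under 0.05, against 10.3% of all genes, and DESeq2 also called 0, against 2.87%. No *Srsf* gene had ranges that did not overlap, as 5.16% of all genes did downward and 6.95% upward. The median log2FC of the 10 was −0.15, against −0.04 over all genes, and it was −0.08 without TKO mouse 1, −0.10 without wt mouse 1, and −0.09 with the *Xist* level or 1 surrogate variable. The wt mice are the same as in the comparison with *Zmat3-/-* mice, so both comparisons carry the split of these mice.

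The gene with the largest difference was *Srsf2*, with 354, 339 and 440 CPM in TKO mice 1 to 3 and a log2FC of −0.30 (standard error 0.153, interval −0.66 to 0.05, adjusted p = 0.536 by edgeR). TKO mouse 3 lay among the wt mice and the other two below them. *Srsf5* had 762, 704 and 832 CPM in TKO mice, and mouse 3 again reached the wt range. Its log2FC was −0.21 (standard error 0.139, adjusted p = 0.612 by edgeR), and it ranged from −0.23 to −0.17 over 17 alternatives. *Srsf1* had 497, 502 and 582 CPM (log2FC −0.24), *Srsf4* had 126, 124 and 163 CPM (log2FC −0.21, and −0.08 without wt mouse 1), and *Srsf6* had 482, 478 and 545 CPM (log2FC −0.13), and in each of them mouse 3 was the highest TKO mouse and lay in the wt range. *Srsf10* was the member with the largest positive value, at 211, 236 and 240 CPM and a log2FC of 0.08 (standard error 0.122, interval −0.20 to 0.36). TKO mice 2 and 3 were above each wt mouse and TKO mouse 1 was within the wt range, and without TKO mouse 2 the log2FC was 0.0122.

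*Srsf3* (618, 616 and 631 CPM), *Srsf7* (313, 344 and 304 CPM), *Srsf9* (45.7, 57.2 and 56.7 CPM) and *Srsf11* (314, 283 and 354 CPM) had log2FC values of −0.02, 0.0084, −0.17 and 0.0001 in TKO against wt mice. For *Srsf9* the interval ran from −0.83 to 0.49, folds of 0.563 to 1.41, so differences of this size were not detectable with these mice. Against wt mice 1 and 2, 4 of 10 genes passed (*Srsf2*, *Srsf4* and *Srsf9* lower, *Srsf11* higher), where 43.6% of all genes passed. Against wt mice 3 and 4, *Srsf1* passed, 1 of 10, where 8.15% of all genes passed. These fits likewise leave out the spread between the wt pairs. With 1 surrogate variable *Srsf1* passed, 1 of 10, with a log2FC of −0.27 (adjusted p = 0.0321 by edgeR), where 17.9% of all genes passed.

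**Figure D4:**
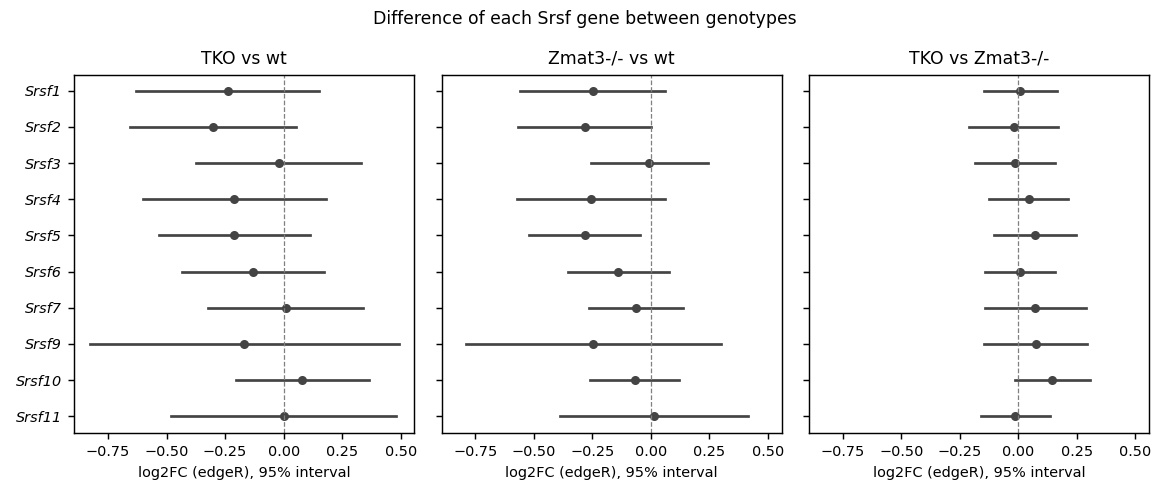
The log2FC of each *Srsf* gene (points) with its 95% interval (lines) from edgeR in the comparisons of TKO with wt, *Zmat3-/-* with wt, and TKO with *Zmat3-/-* mice, on a shared x axis. The intervals of the third comparison, within −0.21 to 0.31, are narrower than those of TKO against wt mice, which reach from −0.83 to 0.49.

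Between TKO and *Zmat3-/-* thymocytes, which differ by *Puma* and *p21*, the *Srsf* genes lay close together. The log2FC ran from −0.02 (*Srsf2*) to 0.15 (*Srsf10*), with 7 of 10 positive and a median of 0.03. Over all genes tested the median was −0.0083, and 52.7% were negative. The median of the 10 genes was 0.01 without TKO mouse 2, and 0.04 without TKO mouse 3 or without *Zmat3-/-* mouse 1 or 2. In CPM, which are scaled over all genes and mice and not over the genes tested in 1 comparison, the TKO mean was the higher for 10 of 10 genes. The log2 ratio of mean CPM was above the fitted log2FC by a median of 0.05 over all genes tested. Mean CPM and the fit differ both in scaling and in how mice are averaged, and their signs differ for *Srsf2*, *Srsf3* and *Srsf11*. With RLE factors the fit kept 7 of 10 positive. By edgeR 0 passed the adjusted threshold, where 0.221% of 13124 genes passed, 0 had an unadjusted p under 0.05 (4.5% of all genes), DESeq2 called 0 (0.556% of all genes), and a fit with 1 surrogate variable called 0 (0.267%). The 95% intervals of all 10 genes lay within folds of 0.865 to 1.24. The standard errors were 0.0663 to 0.0983, against 0.122 to 0.285 in TKO against wt mice. These intervals do not show that the genotypes were alike, but they bound the difference for each gene by itself.

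*Srsf10* was the gene whose TKO and *Zmat3-/-* ranges did not overlap, at 211 to 240 CPM in TKO and 195 to 208 CPM in *Zmat3-/-* mice. A TKO range above the *Zmat3-/-* range was seen in 3.49% of all genes, and the reverse, which no *Srsf* gene showed, in 1.43%. Its log2FC was 0.15 (standard error 0.0724, interval −0.01 to 0.31, adjusted p = 0.983 by edgeR), and the exact permutation p was 0.0286, the smallest that 3 mice against 4 allow. Without TKO mouse 2 the log2FC was 0.09. The gene is on chromosome 4 from 135855747 to 135869908, and 12.0% of its 31-base words occur in other genes, among them the pseudogene *Gm5446*, which had at most 0.0248 CPM.

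*Srsf3* lies on chromosome 17 from 29032628 to 29043373, and its end is 47602 bases before the start of *Cdkn1a*, the gene deleted as *p21* in TKO mice. Its TKO levels of 616 to 631 CPM fell within 599 to 631 CPM, the range of the *Zmat3-/-* mice, except for TKO mouse 3, which was above it by less than 1 CPM. The mean was 622 CPM in TKO and 609 CPM in *Zmat3-/-* mice, while the fitted log2FC was −0.01 (standard error 0.0777, interval −0.19 to 0.16). Of 33 other genes tested within 1000000 bases of *Srsf3*, with *Cdkn1a* itself among them, *Anks1* passed the adjusted threshold between these genotypes by edgeR. An unadjusted p under 0.05 was found for 7 of them. Over all genes the shares were 0.221% and 4.5%. *Srsf7* is on the same chromosome, 51109104 bases beyond the start of *Cdkn1a*, with a log2FC of 0.07 (standard error 0.0971). Of the 31-base words of *Srsf3*, 10.03% are shared with *Gm12355*, which had at most 0.638 CPM in any mouse.

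Around the *Srsf* genes, 52 genes in 5 lists were followed, and all 52 were tested: 15 SR-related splicing regulators, 10 kinases of SR proteins with their import receptor, 10 genes of U1 and U2AF splice site recognition, 10 of NMD and 7 of mRNA export. A single gene, *Rnps1*, passed the adjusted threshold, lower in TKO than in *Zmat3-/-* mice. In the comparisons with wt mice 0 of 52 passed by edgeR, with 9 at an unadjusted p under 0.05 in *Zmat3-/-* (2 higher and 7 lower) and 3 in TKO mice (1 higher and 2 lower), where 16.1% and 10.3% of all genes had such a p. Between *Zmat3-/-* and wt mice the median log2FC was 0.13 for SR-related regulators (9 of 15 positive), −0.13 for the kinases (4 of 10 positive), −0.22 for U1 and U2AF (1 of 10), 0.04 for NMD (7 of 10) and −0.17 for export (1 of 7). These lists also split with the wt pairs. In wt mice 1 and 2 against wt mice 3 and 4, the SR-related genes summed to 3037 to 3082 and 4352 to 4416 CPM, the kinases to 1671 to 1781 and 2119 to 2141 CPM, and the NMD genes to 1031 to 1040 and 1882 to 1896 CPM, while the U1 and U2AF genes (2554 to 2796 and 2598 to 2651 CPM) and the export genes (1166 to 1248 and 1235 to 1244 CPM) overlapped. The part of this split in the medians was not tested.

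**Figure D5:**
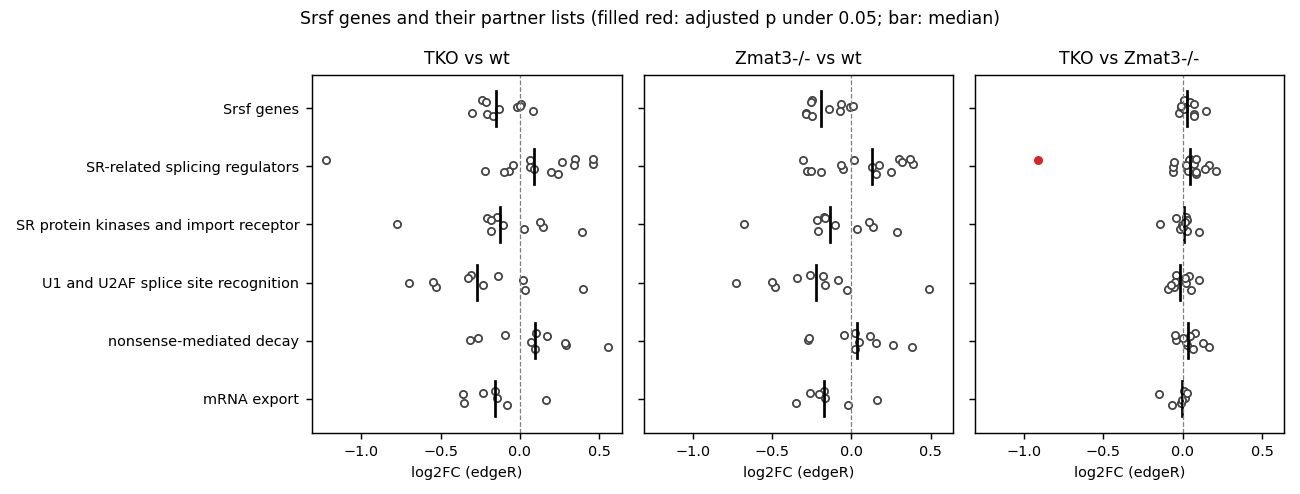
The log2FC (x axis, edgeR) of the 10 *Srsf* genes and of the 52 genes of 5 partner lists (rows) in the comparisons of TKO with wt, *Zmat3-/-* with wt, and TKO with *Zmat3-/-* mice. Each point is a gene, the bar is the list median, and the filled point is *Rnps1*, the gene with an adjusted p under 0.05.

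*Rnps1* encodes a splicing activator that joins the exon junction complex. It had 124, 126, 112 and 103 CPM in *Zmat3-/-* and 58.7, 56.2 and 77.2 CPM in TKO mice, with no overlap, a log2FC of −0.92 (standard error 0.0893, adjusted p = 0.000843 by edgeR). The processed pseudogene *Gm9825* on chromosome 6, which RefSeq names *Rnps1-ps*, was at 27.4, 30.8 and 37.0 CPM in TKO mice and at most 0.0466 CPM in *Zmat3-/-* mice. Summed with it, *Rnps1* had 86.1, 87.0 and 114 CPM in TKO mice, and mouse 3 lay in the *Zmat3-/-* range, so the lower level of *Rnps1* is uncertain, since reads of a gene and its copy can be divided between them. *Rnps1* is also on chromosome 17, from 24414565 to 24425901. Against wt mice its log2FC in TKO mice was −1.22 (standard error 0.233, adjusted p = 0.138 by edgeR).

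In the list of U1 and U2AF genes the largest difference from wt was that of *Luc7l3*, which encodes a U1-associated protein with an arginine and serine rich tail. It had 283, 263, 403 and 384 CPM in wt mice, 184, 201, 212 and 209 CPM in *Zmat3-/-* mice and 187, 220.2 and 227 CPM in TKO mice. Each knockout mouse was below each wt mouse of both pairs. Ranges apart in this direction were seen in 6.75% of all genes for *Zmat3-/-* and 5.16% for TKO against wt mice. Other genes of the partner lists also had ranges apart from wt, some lower and some higher. The log2FC of *Luc7l3* was −0.72 in *Zmat3-/-* (standard error 0.167, adjusted p = 0.0966 by edgeR) and −0.70 in TKO mice (standard error 0.204, adjusted p = 0.350 by edgeR). *Smg1*, the kinase that phosphorylates UPF1 in NMD, had 228, 279, 1005 and 1006 CPM in wt mice 1 to 4, 708 to 934 CPM in *Zmat3-/-* and 832 to 1187 CPM in TKO mice, so that the *Zmat3-/-* mice lay between the wt pairs. *Scaf8*, which binds the tail of RNA polymerase II, had 77.1, 87.5, 119 and 128 CPM in wt and 132 to 138 CPM in *Zmat3-/-* mice (log2FC 0.39, standard error 0.174, adjusted p = 0.325 by edgeR).

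In the kinase list the largest values were those of *Srpk3*, a muscle-enriched SR protein kinase at 0.695 to 3.104 CPM in these mice, with a log2FC of −0.68 in *Zmat3-/-* and −0.77 in TKO against wt mice and −0.14 between TKO and *Zmat3-/-* mice. In the export list *Nxt1*, the cofactor of NXF1, had 47.2, 34.05, 22.7 and 19.8 CPM in wt and 22.2 to 26.7 CPM in *Zmat3-/-* mice (log2FC −0.35). *Thoc5*, of the THO complex, had 56.0, 52.5, 31.2 and 38.3 CPM in wt and 29.7 to 40.9 CPM in TKO mice (log2FC −0.36), and −0.15 between TKO and *Zmat3-/-* mice. Both were higher in wt mice 1 and 2 than in wt mice 3 and 4. Between TKO and *Zmat3-/-* mice the largest values in the remaining lists were 0.10 for *Sf1*, the branch point binding protein, and 0.17 for *Smg1*, each with an adjusted p of 0.983 by edgeR.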

How the data were processed

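RNA-seq libraries of whole-thymus cells from 11 mice were used, grouped by the genotype in their labels. The study's methods name the TruSeq RNA Prep Kit, which does not keep strand, and paired sequencing. The authors ran Salmon through nf-core/rnaseq on GRCm38.p6 and deposited estimated counts per gene without normalization. All 598598 values were whole numbers, so rounding changed none. Library totals were 17669715 to 80207003 counts, and floors from counts cover counting error only. Of the 54418 genes, 54166 were matched to GENCODE M21 (GRCm38) and 252 were not. The study used GENCODE vM25.

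Each pair of genotypes was fitted in edgeR 4.0.16 under R 4.3.3 with TMM and the quasi-likelihood F-test, two-sided, with Benjamini-Hochberg adjustment over all genes tested. A gene was tested if it had 20 counts, at the depth of the smallest library, in at least the smaller group's number of mice. Following the study, *Xist*, Y-linked genes, rRNA genes and immunoglobulin genes of non-coding class were removed. The standard error is the absolute log2FC over the square root of F, with 95% intervals from the same degrees of freedom. CPM carry TMM factors over all genes and the 11 mice, and log2 CPM a prior count of 2. The study also used an absolute log2FC above 1.5 and DESeq2 1.40.0 with sex and surrogate variables. The labels give no sex. Alternatives were DESeq2 1.42.0, RLE factors, other filters, all genotypes in one fit, a replicate block, the *Xist* level, 1 surrogate variable (sva 3.50.0) and each mouse left out. The scripts were tested on simulated data.

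The genes and lists were chosen with earlier results of these data known. All 10 *Srsf* genes are named, and from the 5 partner lists each gene with an adjusted p under 0.05 and the gene with the largest absolute log2FC per list and comparison, besides the 5 genes most correlated with the *Srsf* mean. *Gm9825* and *Anks1* were added after their values were seen. Replicate numbers come from the labels, which do not describe them as pairs. Deviations from the group means of same-numbered mice correlated at 0.337, 0.128, 0.257 and 0.301 between *Zmat3-/-* and wt mice, so these numbers were taken as pairs, and at 0.0734, 0.302 and 0.405 (TKO and wt) and 0.195, 0.0102 and 0.174 (TKO and *Zmat3-/-*), which were not. Each comparison not taken as pairs had a value below 0.128, the lowest of those taken. In both wt and *Zmat3-/-* mice, numbers 1 and 2 had high *Xist* and numbers 3 and 4 low. These correlations therefore do not separate pairs from a shared class. Nothing says the mice share litters or days.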

Additional observations from a re-analysis of the deposited data

Results flagged for a closer look

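*Srsf3* was at 630.6 CPM in *Zmat3-/-* mouse 2, while the other 3 mice of that genotype lay at 599 to 604 CPM. Its gap to the next mouse was 0.858 of the group's range. It is the outlying value among 20 groups of 4 mice examined, and chance gives about 1 in 20.

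The difference between *Zmat3-/-* and wt mice was unlike in the 2 *Xist* classes for 3 *Srsf* genes, in a test of the difference itself in edgeR with 4 wt and 4 *Zmat3-/-* mice. The effect in mice with high *Xist* (numbers 1 and 2) minus that in mice with low *Xist* (numbers 3 and 4) was 0.51 on the log2 scale for *Srsf1* (standard error 0.103, adjusted p = 0.00357), −0.74 for *Srsf9* (standard error 0.186, adjusted p = 0.0101) and 0.56 for *Srsf11* (standard error 0.103, adjusted p = 0.00234). In the 2 classes the mean log2 difference from wt was −0.0080 and −0.48 for *Srsf1*, −0.56 and 0.20 for *Srsf9*, and 0.30 and −0.22 for *Srsf11*. By the same test 44.2% of all 13494 genes passed. Between the classes, *Srsf1*, *Srsf9* and *Srsf11* differed by −0.36, 0.91 and −0.58 in wt and by 0.11, 0.14 and −0.07 in *Zmat3-/-* mice. In wt mice the *Xist* class and the split of the libraries cannot be told apart, since they divide the same mice.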

How the results depend on the processing

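The count of *Srsf* genes called was 0 in each comparison by edgeR. In *Zmat3-/-* against wt mice it was 1 with DESeq2 (8.04% of all genes) and 5 with 1 surrogate variable (37.8%). With wt mice 1 and 2 as the controls it was 5 (56.1%), and with wt mice 3 and 4 it was 3 (33%). Under the last 3 settings it was 1 (17.9%), 4 (43.6%) and 1 (8.15%) in TKO against wt mice. It stayed 0 under the other settings, each mouse left out included, and in TKO against *Zmat3-/-* mice under each one run. The replicate block called 0 of 10 in all 3 comparisons and 16, 12 and 21 of all genes (TKO and wt, *Zmat3-/-* and wt, TKO and *Zmat3-/-*), against 39, 103 and 29 without it. With each mouse left out, 16 to 42, 17 to 105 and 20 to 34 genes passed. DESeq2 called 381, 1085 and 73, a fit without a filter on low counts 61, 55 and 90, the fit of all genotypes 216, 239 and 16, and the *Xist* level 52, 191 and 27.

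Signs turned for genes near 0 or split in wt mice. In TKO against wt mice *Srsf3* was 0.0163 without a filter, 0.0036 with *Xist*, 0.0146 with a surrogate variable and 0.0979 against wt mice 3 and 4, *Srsf11* was −0.0044, −0.0418 and −0.2773 under the last 3, *Srsf9* was 0.0140 and 0.3385 under the last 2, and *Srsf7* was −0.0051 against wt mice 1 and 2. In *Zmat3-/-* against wt mice, with a surrogate variable and against wt mice 3 and 4, *Srsf3* was 0.0193 and 0.1041 and *Srsf11* −0.0160 and −0.2714, while *Srsf9* was 0.2565 against wt mice 3 and 4. Between TKO and *Zmat3-/-* mice, *Srsf3* was 0.0004 without a filter and 0.0204 with a surrogate variable, *Srsf11* was 0.0026 without a filter and 0.0112 with the block, and *Srsf1* was −0.0026 with the block. With single mice left out, the log2FC in TKO against wt mice was −0.0597 to 0.0427 for *Srsf3*, −0.0892 to 0.1094 for *Srsf7*, −0.3282 to 0.0760 for *Srsf9* and −0.1107 to 0.1184 for *Srsf11*. In *Zmat3-/-* against wt mice it was −0.0469 to 0.0528 for *Srsf3*, −0.1009 to 0.1349 for *Srsf11* and −0.4039 to −0.0055 for *Srsf9*. Between TKO and *Zmat3-/-* mice it was −0.0037 to 0.0322 for *Srsf1*, −0.0599 to 0.0295 for *Srsf2*, −0.0420 to 0.0543 for *Srsf3*, −0.0072 to 0.0966 for *Srsf4*, −0.0040 to 0.0275 for *Srsf6*, −0.0188 to 0.1825 for *Srsf7*, −0.0175 to 0.1474 for *Srsf9* and −0.0397 to 0.0301 for *Srsf11*. The cause was not tested. Without TMM factors, the mean was 591 CPM for *Srsf3* in *Zmat3-/-* mice, and 556 for *Srsf6*, 324 for *Srsf7* and 220 for *Srsf10* in wt mice, each moved by more than its SD.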
